A study of Homo sapiens with 6 samples.

Results

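ATF4, its stress-induced target genes and the genes of serine synthesis were followed after siRNA against AHR in DLD-1, an established human cell line of colorectal adenocarcinoma. The product of AHR is the aryl hydrocarbon receptor, which binds small ligands and regulates transcription. The 10 genes were chosen by name: ATF4, DDIT3, DDIT4, TRIB3, ASNS, CHAC1, SESN2, PSAT1, PHGDH and PSPH. All 10 were matched to 1 Ensembl ID each among the 60483 IDs in the count tables, and all 10 were among the 14900 genes with enough counts to be tested. Total RNA was sequenced from 3 libraries of cells given a control siRNA and 3 libraries of cells given AHR siRNA, all of the same line grown in serum-containing RPMI-1640 medium. The sources used here give neither the siRNA sequences nor the time after transfection, and no label says whether the replicates were separate cultures. The p-values therefore weigh differences only against the spread of these libraries, and that spread may be technical.

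ATF4 is a basic leucine zipper transcription factor at the end of the integrated stress response. Kinases that sense amino acid shortage, unfolded protein in the endoplasmic reticulum, heme shortage or double-stranded RNA phosphorylate the translation factor eIF2, general translation slows, and the ATF4 message is translated more. Much of the control of ATF4 is therefore at translation, which RNA-seq does not measure. ATF4 protein then binds composite C/EBP-ATF elements, often with a C/EBP partner, and raises transcription of genes for amino acid synthesis, transport and tRNA charging, and of stress regulators such as DDIT3, TRIB3 and CHAC1. Serine is made from a glycolytic intermediate by PHGDH, PSAT1 and PSPH in that order, and feeds glycine and folate-bound carbon for nucleotide synthesis in dividing cells.

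The libraries held 11567736 to 15037145 counts. The AHR transcript stood at 117, 144 and 132 CPM in control libraries 1, 2 and 3, and AHR siRNA libraries 1, 2 and 3 had 95.8, 87.4 and 94.95 CPM, a mean of 70.9% of control. CPM, the usual count scaled to a common library size, rests here on TMM, which sets libraries level on the bulk of genes, and library numbers are the replicate numbers of the labels. All 8 epithelial markers checked (EPCAM, CDH1, KRT8, KRT18, KRT19, CLDN4, CLDN7 and VIL1) were detected. Their summed level was 11763 to 13300 CPM in control and 8170 to 8508 CPM in AHR siRNA libraries, with KRT8 at 6359 and 3902 CPM and KRT18 at 2829 and 1756 CPM the most abundant. EPCAM, CDH1, CLDN7, KRT8 and KRT18 were called lower, KRT19 and CLDN4 were not called, and VIL1 was called higher, at 7.47 and 33.5 CPM. The part of this shift in the results on the 10 genes was not tested. The summed level of 7 fibroblast markers was 2.13 to 3.31 CPM, of 7 leukocyte markers 4.64 to 8.03 CPM and of 6 endothelial markers 5.18 to 7.05 CPM over all libraries, with the fibroblast markers DCN, LUM and THY1 and the endothelial marker KDR among those listed at 0 in all. In bulk RNA, fewer cells with a transcript and less of it per cell cannot be told apart. Control siRNA replicate 1 stood apart from its group. The chi-square of counts per degree of freedom was 8.68 and 7.55 against control replicates 2 and 3, and 1.54 between those 2. Pairs of AHR siRNA libraries lay between, at 3.31 to 5.46. It was the highest control library for 8 of the 10 genes described here and for 40.8% of all genes tested.

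PSAT1 and PHGDH, the genes of the first steps of serine synthesis, fell most among the 10, to 54.2% and 59.8% of control. ASNS fell to 75.7% and ATF4 itself to 83.6%, whereas DDIT4 rose to 136% from a low level. DDIT3, TRIB3, CHAC1, SESN2 and PSPH were not called. The 10 genes thus gave 4 lower calls and 1 higher call at an edgeR adjusted p under 0.05, adjusted over all tested genes. Over all tested genes 60.1% were called, 30.1% lower and 30.0% higher, so 5 calls among 10 is no more than the background. Values of 6 of the 10 did not overlap between groups, against 63.7% of all tested genes. The median log2 fold change of the 10 was -0.15, against 0.01 for all tested genes. Of the 4479 lower genes, 1062 fell further than PSAT1. Without control siRNA replicate 1 the 4 lower calls held and PSPH was called as well, higher.

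**Figure D1:**
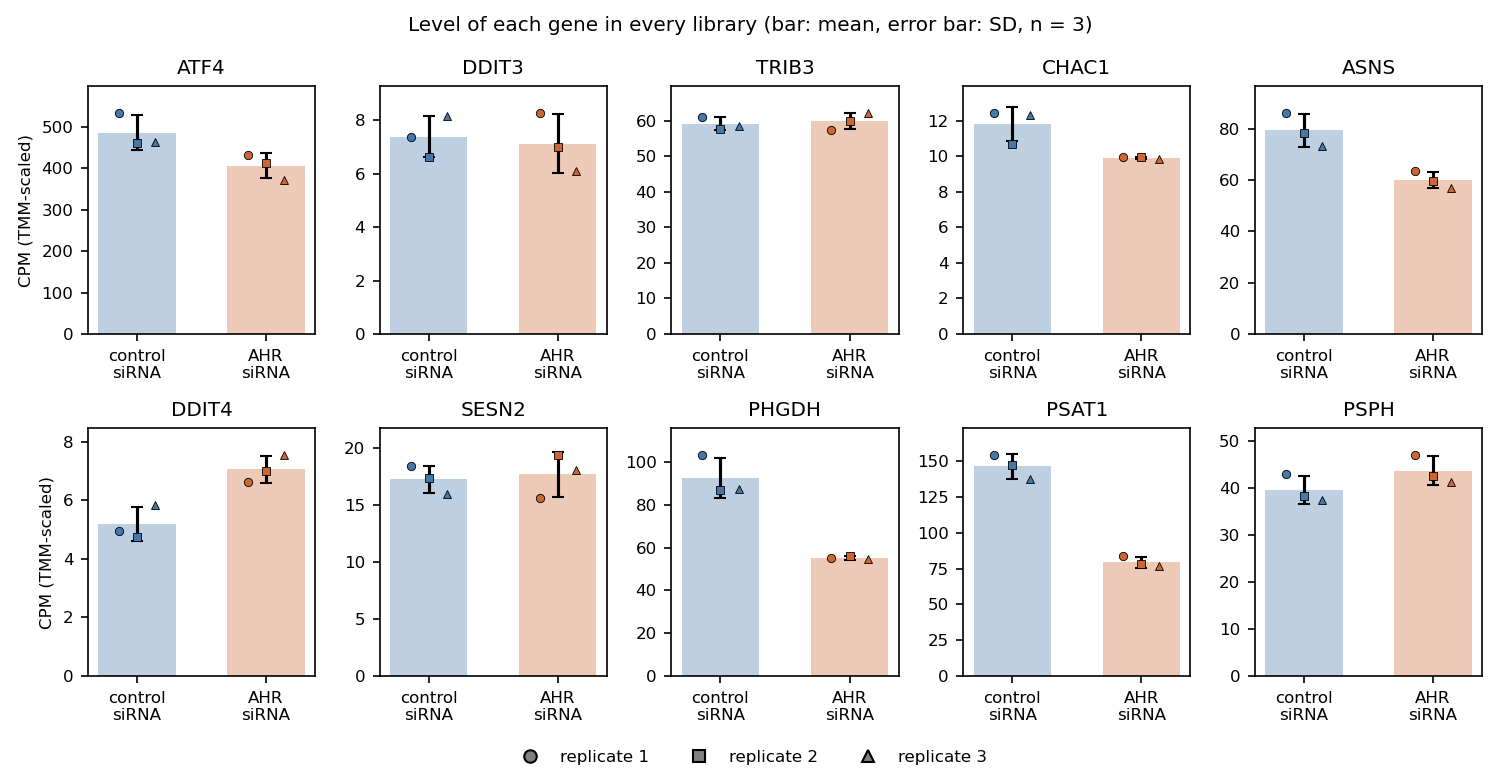
Level of each of the 10 genes in CPM (y axis, from 0, a scale of its own in each panel) in the 3 control siRNA libraries (blue) and the 3 AHR siRNA libraries (orange); bars are means, error bars SD (n = 3), and point shapes mark the replicate number. The AHR siRNA points lie below all control points for ATF4, CHAC1, ASNS, PHGDH and PSAT1, and above them for DDIT4.

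The promoters of 9 of the 10 genes were found in a RefSeq table (GRCh38.p14) that gives 250 bases before and 50 after each transcription start. They were searched on both strands for the core of the C/EBP-ATF response element, TGATGNAA, which ATF4 dimers bind, and for GCGTG, the core of the AHR response element; no match of one overlapped a match of the other. A C/EBP-ATF core was found for ASNS and CHAC1, or 2 of 9 genes, against 4.46% of the 27305 genes in the table. A GCGTG core was found for 7 of 9, all but PHGDH and SESN2, against 40.6%. The 9 genes have 14 promoters in the table, and a match in any promoter of a gene counts. Both shares are over all genes of the table, tested here or not, so they are not a matched background. A match describes the letters in this window and is not evidence of binding. The 3 promoters below are shown because ASNS and CHAC1 hold the ATF4 core and PSAT1 is the gene that fell most. Capitals mark both kinds of core, and the sequences run 5′ to 3′ on the strand of the gene, from chr7:97872359-97872658 (minus strand) for ASNS, chr15:40953221-40953520 (plus strand) for CHAC1 and chr9:78296875-78297174 (plus strand) for PSAT1.
ASNS: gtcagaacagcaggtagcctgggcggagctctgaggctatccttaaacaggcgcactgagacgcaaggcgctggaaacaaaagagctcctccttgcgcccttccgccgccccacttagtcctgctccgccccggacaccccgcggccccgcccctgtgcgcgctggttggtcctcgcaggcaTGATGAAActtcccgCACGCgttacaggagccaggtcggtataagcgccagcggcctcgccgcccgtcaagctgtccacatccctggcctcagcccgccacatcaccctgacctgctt
CHAC1: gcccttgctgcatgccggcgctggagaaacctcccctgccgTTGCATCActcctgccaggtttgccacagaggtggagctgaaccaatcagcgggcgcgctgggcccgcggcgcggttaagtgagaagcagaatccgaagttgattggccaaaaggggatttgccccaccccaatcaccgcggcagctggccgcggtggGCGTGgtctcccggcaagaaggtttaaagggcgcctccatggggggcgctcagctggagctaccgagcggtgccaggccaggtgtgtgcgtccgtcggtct
PSAT1: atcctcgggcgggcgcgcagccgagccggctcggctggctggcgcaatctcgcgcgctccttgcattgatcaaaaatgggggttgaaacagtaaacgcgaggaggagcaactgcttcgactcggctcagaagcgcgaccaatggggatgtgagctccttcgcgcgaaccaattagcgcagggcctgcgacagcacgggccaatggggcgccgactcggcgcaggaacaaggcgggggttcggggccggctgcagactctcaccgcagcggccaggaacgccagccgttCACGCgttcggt
In ASNS the TGATGAAA core starts 68 bases before the transcription start and is followed by a CACGC, the GCGTG core on the other strand, that starts at 53 bases before. In CHAC1 the TTGCATCA core, on the other strand, starts 209 bases before the transcription start, and a GCGTG starts 51 bases before. In PSAT1 the capitals are a CACGC at base 39 after the start. ASNS was called lower. CHAC1, at a log2 fold change of -0.25 and with no overlap between groups, was not called (edgeR adjusted p = 0.0757). The core stands in both windows, and its part in these levels was not tested.

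PHGDH oxidises phosphoglycerate from glycolysis and commits it to serine synthesis. The gene (ENSG00000092621.10) lies on the plus strand of chromosome 1, at 119648411 to 119744226 in GENCODE 29 on GRCh38. It stood at 103, 86.8 and 87.3 CPM in control libraries 1 to 3, and AHR siRNA libraries 1 to 3 had 55.0, 56.3 and 54.6 CPM. Every AHR siRNA library was below every control library, and the 3 AHR siRNA values lay close together. The means were 92.5 ± 9.5 and 55.3 ± 0.9 CPM (SD, n = 3 each). This gave a log2 fold change of -0.74 (SE 0.08), with an edgeR adjusted p of 1.33e-07.

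PSAT1 transfers an amino group from glutamate to make phosphoserine. The gene (ENSG00000135069.12) lies on the plus strand of chromosome 9, at 78297143 to 78330093. It stood at 155, 147 and 137 CPM in control libraries 1 to 3, and AHR siRNA libraries 1 to 3 had 83.7, 77.9 and 76.5 CPM, with no overlap. The means were 146 ± 9 and 79.4 ± 3.8 CPM (SD, n = 3 each). This gave a log2 fold change of -0.88 (SE 0.07), with an edgeR adjusted p of 3.02e-09. PSAT1 and PHGDH were called lower under every alternative run, with log2 fold changes of -0.94 to -0.74 and -0.80 to -0.59. The 3' UTR of PSAT1 (1007 bases in GENCODE 29) holds the word GACTTAA, 1 of 2 words that an earlier search had picked on these same fold changes, so it is no independent evidence. Neither word stands in the 3' UTR of the other 9 genes. The site is shown for that reason, at chr9:78329379-78329408 on the plus strand of GRCh38, with the word in capitals.
PSAT1 site: acttgcctgtgGACTTAAtaatgcaagttg
Of 12322 tested genes with a 3' UTR, 16.1% held either word, and 47.1% of those were called lower against 31.3% of the rest. Both words had been picked on these fold changes, so a difference of this kind was built in and is no evidence. The length of the UTR was not taken into account. The part of GACTTAA in the fall of PSAT1 was not tested.

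PSPH removes the phosphate in the last step and releases serine. The gene (ENSG00000146733.12) lies on the minus strand of chromosome 7, at 56011051 to 56051604. It stood at 42.9, 38.3 and 37.5 CPM in control libraries 1 to 3, and AHR siRNA libraries 1 to 3 had 47.1, 42.6 and 41.3 CPM. The groups overlapped, with 2 AHR siRNA libraries below control replicate 1. The log2 fold change was 0.14 (95% interval -0.03 to 0.31, edgeR adjusted p = 0.151), an interval that excludes a fall of the size of PHGDH or PSAT1. PSPH was called higher without control siRNA replicate 1 (0.19, edgeR adjusted p = 0.0466), with upper-quartile factors (0.22, edgeR adjusted p = 0.0286) and with library totals alone (0.29, edgeR adjusted p = 0.00490). Its pseudogene PSPHP1, with which it can share reads, stood at 4.48 ± 0.82 and 3.53 ± 0.41 CPM (SD, n = 3 each) and was not called.

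Within a library, a ratio of the counts of a pair of genes does not depend on how libraries are scaled. The ratio of PSAT1 to PSPH was 3.60, 3.85 and 3.67 in the control libraries, and after AHR siRNA it was 1.78, 1.83 and 1.85. The ratio of PHGDH to PSPH was 2.41, 2.26 and 2.33 in control and 1.17, 1.32 and 1.32 in AHR siRNA libraries. Neither ratio overlapped between groups, and the AHR siRNA means were 49.1% and 54.4% of control. The ratio of PSAT1 to PHGDH was 1.49, 1.70 and 1.57 in control and 1.52, 1.38 and 1.40 in AHR siRNA libraries, and the groups overlapped. These pairs were chosen after the values of the genes had been seen, so the ratios are given with no test.

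**Figure D2:**
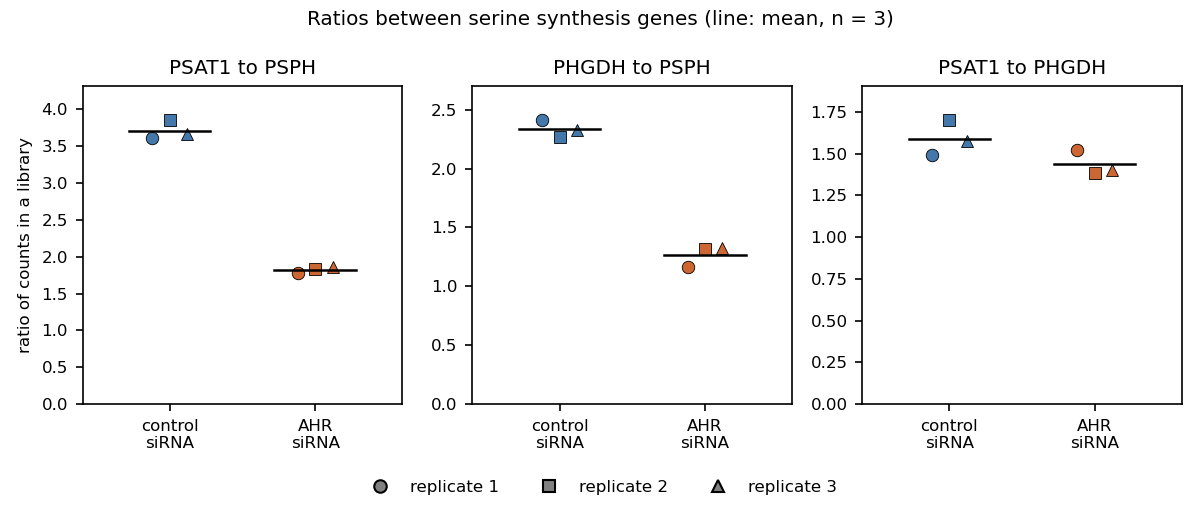
Ratio of counts between serine synthesis genes within each library (y axis, no unit, from 0) in control siRNA (blue) and AHR siRNA (orange) libraries; lines are means (n = 3), and point shapes mark the replicate number. PSAT1 to PSPH and PHGDH to PSPH are lower in all 3 AHR siRNA libraries than in any control library, while PSAT1 to PHGDH overlaps between the groups.

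ATF4 (ENSG00000128272.13, plus strand of chromosome 22, 39519695 to 39522685) was the most abundant of the 10 transcripts. It stood at 535, 460.0 and 464 CPM in control libraries 1 to 3, and AHR siRNA libraries 1 to 3 had 432, 414 and 373 CPM. The highest AHR siRNA library lay below the lowest control library. The means were 486 ± 42 and 406 ± 30 CPM (SD, n = 3 each). This gave a log2 fold change of -0.26 (SE 0.08), with an edgeR adjusted p of 0.00649. The call was lost without AHR siRNA replicate 3 (-0.20, edgeR adjusted p = 0.0501), with upper-quartile factors (-0.18, edgeR adjusted p = 0.0511) and with library totals alone (-0.11, edgeR adjusted p = 0.176). Library totals alone moved the median gene up by 0.15 on the log2 scale, and ATF4 lay 0.26 below the median gene with totals and 0.27 below it with TMM. Reads of ATF4 may also fall on processed copies: the copy ATF4P3 stood at 2.62 ± 0.08 and 3.10 ± 0.18 CPM (SD, n = 3 each).

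ASNS makes asparagine from aspartate and glutamine and is a classic target of ATF4 when amino acids run short. The gene (ENSG00000070669.15, minus strand of chromosome 7, 97852118 to 97872542) stood at 86.4, 78.5 and 73.4 CPM in control libraries 1 to 3. In AHR siRNA libraries 1 to 3 it stood at 63.4, 59.7 and 57.1 CPM, each below every control library. The means were 79.4 ± 6.5 and 60.1 ± 3.2 CPM (SD, n = 3 each). This gave a log2 fold change of -0.40 (SE 0.08), with an edgeR adjusted p of 0.000161. It was called lower under all alternatives run, at -0.47 to -0.25. GENCODE 29 places the transcript AC079781.5, which is not among the counted IDs, on 1985 exon bases of ASNS on the same strand.

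TRIB3, a pseudokinase that ATF4 induces and that restrains ATF4 and AKT, was not called. The gene (ENSG00000101255.9, plus strand of chromosome 20, 362835 to 397559) stood at 61.2, 57.8 and 58.5 CPM in control libraries 1 to 3, and AHR siRNA libraries 1 to 3 had 57.6, 60.0 and 62.3 CPM. The ranges of the groups lay almost on top of each other. The log2 fold change was 0.02 (95% interval -0.13 to 0.17, edgeR adjusted p = 0.822), and it was called higher with library totals alone (0.17, edgeR adjusted p = 0.0438). Within a library, ASNS to TRIB3 was 1.41, 1.36 and 1.26 in control and 1.10, 0.995 and 0.916 in AHR siRNA libraries. This ratio, chosen after its genes' values were seen, did not overlap between the groups.

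DDIT3 encodes CHOP, the factor linked to cell death under lasting stress, and CHAC1 encodes an enzyme that degrades glutathione. DDIT3 (ENSG00000175197.9, minus strand of chromosome 12, 57516588 to 57521737) was low, at 7.35, 6.63 and 8.15 CPM in control libraries 1 to 3, and AHR siRNA libraries 1 to 3 had 8.28, 6.99 and 6.10 CPM. The groups overlapped, and the log2 fold change of -0.05 (95% interval -0.38 to 0.27, edgeR adjusted p = 0.783) changed its sign with the scaling. DDIT3 shares 355 exon bases with MARS1 on the opposite strand, and the strand setting of the counting is not given, so its value is uncertain. CHAC1 (ENSG00000128965.10, plus strand of chromosome 15, 40952962 to 40956519) stood at 12.5, 10.7 and 12.3 CPM in control libraries 1 to 3, and AHR siRNA libraries 1 to 3 had 9.94, 9.93 and 9.84 CPM. Its groups did not overlap, yet at 120 to 166 counts per library the log2 fold change of -0.25 (SE 0.12) missed the threshold (edgeR adjusted p = 0.0757). It passed without control siRNA replicate 2 (-0.33, edgeR adjusted p = 0.0428).

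DDIT4 and SESN2 both restrain the growth kinase mTORC1, DDIT4 through the TSC complex and SESN2 as a sensor of leucine. DDIT4 (ENSG00000168209.4, plus strand of chromosome 10, 72273920 to 72276036) stood at 4.95, 4.76 and 5.85 CPM in control libraries 1 to 3, and AHR siRNA libraries 1 to 3 had 6.63, 6.99 and 7.56 CPM. All AHR siRNA libraries were above all control libraries, on 66 to 103 counts per library. The means were 5.19 ± 0.58 and 7.06 ± 0.47 CPM (SD, n = 3 each). This gave a log2 fold change of 0.45 (SE 0.16), with an edgeR adjusted p of 0.0177. The call was lost with DESeq2 (0.44, DESeq2 adjusted p = 0.055), without control siRNA replicate 2 (0.38, edgeR adjusted p = 0.0761) and without AHR siRNA replicate 3 (0.40, edgeR adjusted p = 0.0724). The antisense gene DDIT4-AS1, which shares 847 exon bases with DDIT4, was listed at 0 in all 6 libraries. The strand setting of the counting is not given, so the level of DDIT4 is uncertain. SESN2 (ENSG00000130766.4, plus strand of chromosome 1, 28259527 to 28282491) stood at 18.4, 17.3 and 16.0 CPM in control libraries 1 to 3, and AHR siRNA libraries 1 to 3 had 15.6, 19.4 and 18.1 CPM. Its groups overlapped, at a log2 fold change of 0.04 (95% interval -0.18 to 0.26, edgeR adjusted p = 0.767). Within a library, DDIT4 to SESN2 was 0.269, 0.275 and 0.365 in control and 0.426, 0.360 and 0.419 in AHR siRNA libraries. This ratio, given with no test, overlapped between the groups.

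**Figure D3:**
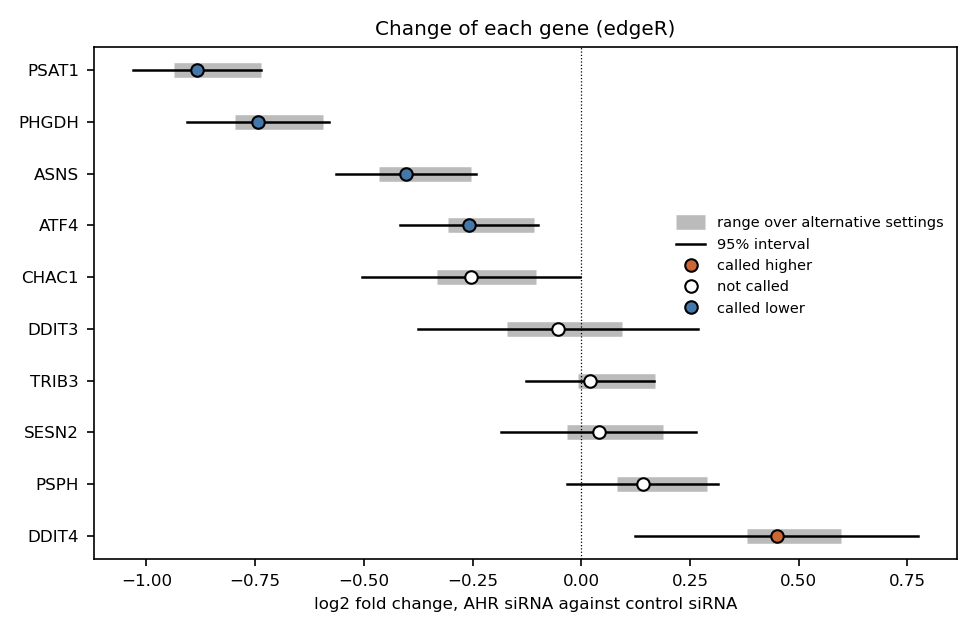
Log2 fold change of each gene in AHR siRNA against control siRNA (x axis) with its 95% interval (black line) and the range over 14 alternative settings (grey bar); filled points were called (blue lower, orange higher), open points were not. PSAT1 at -0.88 and PHGDH at -0.74 lie far from 0, while the intervals of DDIT3, TRIB3, SESN2 and PSPH span 0.

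Levels of different genes were compared per kilobase of the longest principal transcript. In control siRNA libraries the order was ATF4 at 241 ± 21 CPM per kilobase (SD, n = 3), PSAT1 at 66.9 ± 4.0, PHGDH at 35.8 ± 3.7, ASNS at 33.7 ± 2.8, TRIB3 at 23.7 ± 0.7 and PSPH at 18.2 ± 1.3. DDIT3 at 7.85 ± 0.81, CHAC1 at 7.58 ± 0.62, SESN2 at 4.99 ± 0.35 and DDIT4 at 2.97 ± 0.33 CPM per kilobase followed. The library ranges of neighbours overlapped for PHGDH with ASNS and for DDIT3 with CHAC1, and for no other neighbours. In AHR siRNA libraries the level of PSAT1 was 36.3 ± 1.8 CPM per kilobase, and PHGDH, at 21.4 ± 0.3, stood below ASNS (25.5 ± 1.3) and TRIB3 (24.0 ± 1.0) and overlapped in range with its next neighbour PSPH (20.05 ± 1.41). ASNS also overlapped with TRIB3. The order depends on the length used. Per kilobase of all annotated exons the control level of PHGDH was 10.0 CPM, below ASNS (17.8), TRIB3 (17.2) and PSPH (14.3). By that length CHAC1 (5.74) also stood above DDIT3 (5.64).

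Of 10 tested paralogs and close relatives of the genes, 5 were higher and 4 lower, against 30.0% and 30.1% of all tested genes. TRIB1 rose from 38.2 ± 1.6 to 68.0 ± 5.5 CPM and TRIB2 from 4.56 ± 0.13 to 10.6 ± 1.0 CPM (SD, n = 3 each), log2 fold changes of 0.83 and 1.21, beside 0.02 for TRIB3. SESN3 rose from 12.9 ± 0.9 to 25.1 ± 3.7 CPM, a log2 fold change of 0.96, whereas SESN1, at 8.35 ± 1.15 and 6.72 ± 0.60 CPM, was not called (SD, n = 3 each). CHAC2, the constitutive relative of CHAC1, fell from 28.99 ± 2.64 to 13.1 ± 0.6 CPM (SD, n = 3 each), to 45.0% of control. ATF5, a close relative of ATF4 that is also under translational control, rose to 148%. Of the C/EBP factors, which pair with ATF4 and with DDIT3, CEBPG fell to 69.4%, CEBPB to 74.4% and CEBPA to 74.1% of control, while CEBPD rose to 195%. The call of CEBPA was lost with library totals alone. Differences between a gene and its paralog were not tested.

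Upstream of ATF4, 18 genes for eIF2 kinases, eIF2 and eIF2B subunits, phosphatase regulators and mitochondrial stress sensors were tested, of which 6 were lower and 2 higher (median log2 fold change -0.13). Over all tested genes 30.1% were lower, near the share of this list, and 30.0% were higher. With library totals alone, 21.5% of all tested genes were lower and 39.5% higher. OMA1, the mitochondrial protease whose cut of DELE1 relays mitochondrial stress to eIF2, rose from 8.33 ± 0.66 to 19.0 ± 1.1 CPM (SD, n = 3 each), by 1.19 on the log2 scale (SE 0.11). The eIF2 alpha subunit gene EIF2S1 fell to 65.0%, the phosphatase regulator gene PPP1R15B to 71.5% and the exchange factor gene EIF2B5 to 74.4% of control. Of 14 tested partners and relatives of ATF4, 7 were higher and 5 lower (median 0.14), and with library totals alone 3 were lower. JUND rose to 148% and NFE2L2, itself a known AHR target, fell to 68.1% of control.

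Other targets of ATF4 were more often lower than higher. Of 23 tested beside the 10, 13 were lower and 2 higher (median log2 fold change -0.30), and with library totals alone 4 were higher. HMOX1, the heme-degrading enzyme, fell from 50.7 ± 4.2 to 17.4 ± 2.6 CPM (SD, n = 3 each), SLC3A2, the heavy chain of amino acid exchangers, to 69.2% and the tRNA exporter gene XPOT to 72.3% of control. Of 11 amino acid transporters in the ATF4 programme, 6 were lower and 2 higher (median -0.23). The higher count was 1 in 6 of the alternatives and 4 with library totals alone. The large neutral amino acid transporter gene SLC7A5 fell to 22.3% of control and the cystine importer gene SLC7A11 to 54.6%, whereas SLC38A2, which imports small neutral amino acids, rose to 143%. Of 20 cytosolic aminoacyl-tRNA synthetases, 11 were lower and 1 higher (median -0.17), and with library totals alone 7 were lower and 4 higher. FARSB fell to 57.5%, YARS1 to 67.8% and IARS1 to 68.1% of control, and QARS1 rose to 144%. With TMM 30.1% of all tested genes were lower and 30.0% higher, and with library totals alone 21.5% were lower and 39.5% higher. The lists share members such as SLC3A2 and ATF5.

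Enzymes downstream of serine moved both ways. Of 21 tested genes of serine to glycine conversion, glycine cleavage and folate-bound carbon, 11 were lower and 7 higher (median log2 fold change -0.19). With TMM, 30.1% of all tested genes were lower and 30.0% higher, the background for each list in this paragraph. TYMS, which makes thymidylate, fell to 39.5% of control. SDSL, which encodes a serine dehydratase-like protein, rose from 2.10 ± 0.29 to 11.8 ± 0.7 CPM (SD, n = 3 each), by 2.48 on the log2 scale (SE 0.17). Of 6 tested users of serine, SPTLC3 and CTH rose to 184% and 151%, and PTDSS1 and SPTLC2 fell to 70.9% and 77.7% of control. Of 17 enzymes of aspartate, asparagine, glutamate and proline, 7 were lower, among them ASNS as already counted above, and 1 higher (median -0.09), and with library totals alone 3 were lower and 3 higher. GLUD1, which interconverts glutamate and oxoglutarate, fell to 64.3% and the mitochondrial aspartate aminotransferase gene GOT2 to 73.7% of control, and the alanine aminotransferase gene GPT rose to 217%.

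Of 12 tested genes of glycolytic steps that supply the substrate of PHGDH or carry it away, 11 were lower and 1 higher (median log2 fold change -0.39). The background for this and the next lists was 30.1% lower and 30.0% higher over all tested genes with TMM. LDHA fell to 45.1%, PKM to 56.9%, HK2 to 62.1% and PFKP to 65.6% of control. Of 7 genes on which CHOP is known to act, 3 were higher and 1 lower: the death receptor gene TNFRSF10B rose to 151% and the BH3-only genes PMAIP1 and BBC3 to 165% and 154% of control. These rises stood beside a DDIT3 level that was not called. ERO1A, at 85.5%, was lower, a call lost with upper-quartile factors and with library totals alone. Of 19 genes of the ATF6 and XBP1 arms of the endoplasmic reticulum stress response, 11 were lower and 2 higher (median -0.53). The higher count was 4 with upper-quartile factors and 5 with library totals alone. HSPA5, the chaperone BiP, fell to 65.8%, and PDIA4 and PDIA6, which form disulfide bonds, to 52.8% and 57.8% of control.

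Among 22 tested mTORC1 regulators other than DDIT4 and SESN2, 8 were higher and 3 lower (median log2 fold change 0.08), and with library totals alone 1 was lower. Of all tested genes 30.0% were higher and 30.1% lower with TMM, the background for each list in this paragraph. The Rag GTPase genes RRAGB and RRAGD rose to 226% and 294% of control, while MIOS, of the GATOR complex, fell to 56.1%. Of 15 tested genes of hypoxia, glucocorticoid and p53 responses, which can also induce DDIT4 or SESN2, 4 were lower and 2 higher (median -0.15). The cell cycle inhibitor gene CDKN1A fell to 38.6%, ZMAT3 to 48.2% and the hypoxia gene EGLN3 to 43.6%, and TP53INP1 rose to 370% of control from 2.25 CPM. Of 11 glutathione genes, 5 were lower and 4 higher (median -0.05): GSR fell to 44.2%, GCLM to 34.6% and GGCT to 44.5% of control. The 4 higher genes, most of them outside the rule for naming and named after their values were seen, were OPLAH, CTH, GSS and GCLC, with log2 fold changes of 0.78, 0.59, 0.22 and 0.20.

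**Figure D4:**
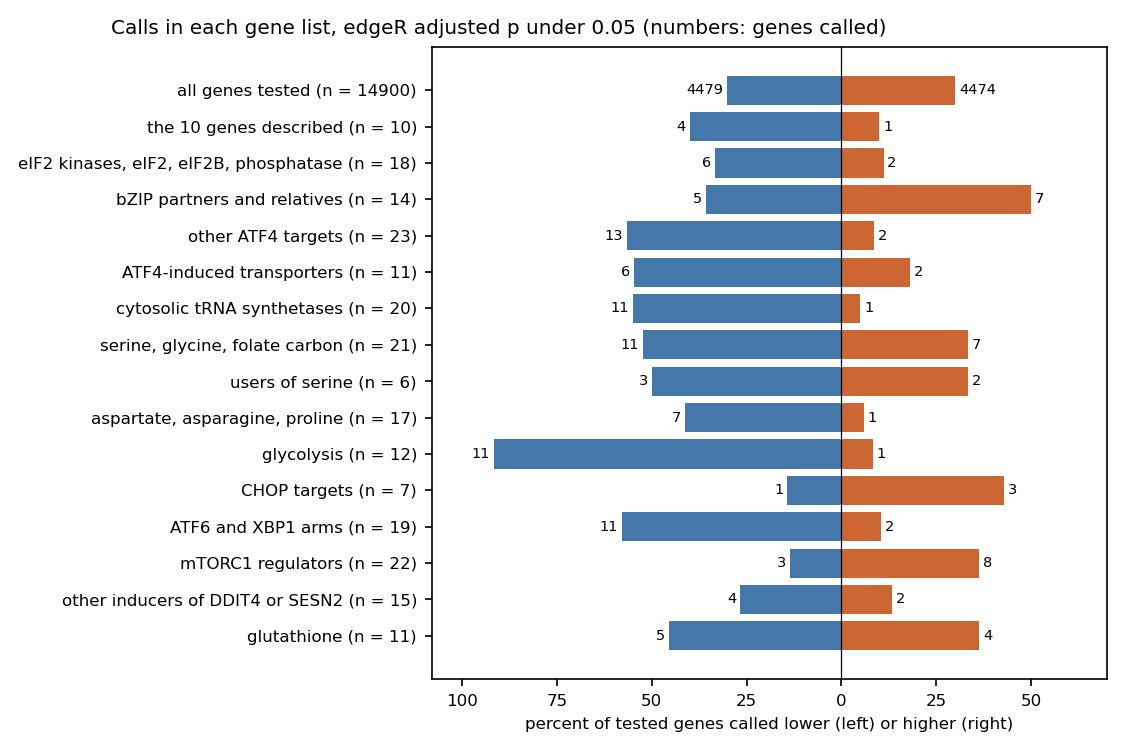
Share of tested genes called lower (left, blue) and higher (right, orange) in each list of related genes, in percent of the genes tested (n in brackets), with the number called at the end of each bar and all 14900 tested genes in the top row. Most lists reach further left than the top row, with glycolysis (11 of 12 lower) furthest. The ATF6 and XBP1 arms (11 of 19) and other ATF4 targets (13 of 23) come next. CHOP targets (1 of 7), mTORC1 regulators (3 of 22) and other inducers of DDIT4 or SESN2 (4 of 15) fall short of it. The 10 genes described (4 lower, 1 higher) lie near the top row on the left and short of it on the right.

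Genes with the most similar pattern over the 6 libraries were looked for among 10878 others with a symbol and a mean of at least 5 CPM. For PSAT1 they were TRIM31, KHK and GLO1 (Pearson correlation of log2 CPM 0.9998, 0.9995 and 0.9995). For ATF4 they were SEC61G, MRPL24 and MALSU1 (0.9996, 0.9989 and 0.9986), and for DDIT4 MADD, TFR2 and NUDT3 (0.9907, 0.9893 and 0.9885). The libraries form 2 groups, so these values reflect the difference between groups as well as the spread within them. With PSAT1 2135 genes exceeded 0.95, with ATF4 387 and with DDIT4 180. These correlations are a description and were not tested.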

How the data were processed

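RNA of 6 DLD-1 libraries, 3 per group, was measured as counts. The authors deposited 1 table per sample of whole-number counts per versioned Ensembl gene ID. HTSeq, TopHat and TopHat2 2.0.11 are the tools, and GRCh37 and hg19 the builds, per the submitters' processing notes, which give them no role. No source used here gives the annotation or strand setting. Positions, lengths and UTRs are those of GENCODE 29 on GRCh38, not of the tables. Of 60483 IDs, 41124 had a symbol.

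The deposited counts went into edgeR 4.0.16 (R 4.3.3) unchanged (filterByExpr, TMM, glmQLFTest, group as the only term, Benjamini-Hochberg over all 14900 genes, called under 0.05). The SE is the log2 fold change divided by the square root of F, and the 95% interval uses its t quantile. The fit was tested on simulated data in which few genes changed. That test does not cover the scaling of data in which 60.1% of genes were called. Groups and replicates came from sample titles. The rule for naming took the 10 genes, AHR, up to 4 called members per list with the smallest p, and all tested paralogs and pseudogenes; some genes under this rule are not reported here. The 10 genes and the lists were chosen with earlier results of these data known. Of 20 pseudogene names, 13 matched and 2 were tested. DESeq2 1.42.0 and limma 3.58.1 served as alternatives, with other scalings, filters, a stricter threshold, a replicate block and each library left out.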

Additional observations from a re-analysis of the deposited data

How the results depend on the processing

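The 5 results on counts of calls and the 10 single genes were recomputed under 15 alternatives, and 198 of 225 values kept their direction and side of the threshold, or stayed within 1.5 times for a count. PSAT1, PHGDH and ASNS kept their calls in all. The number of the 10 genes called higher, 1 as reported, was 2 with upper-quartile factors, 3 with library totals alone, 0 with the DESeq2 Wald test, 0 at an adjusted p under 0.01 and 0 to 2 when a library was left out. With upper-quartile factors ATF4 was at -0.18 (not called), PSPH at 0.22 (called) and DDIT3 at 0.0256. With library totals alone ATF4 was at -0.11 (not called), PSPH at 0.29 and TRIB3 at 0.17 (both called) and DDIT3 at 0.0942. Relative to the median gene, these scalings moved no member by as much as 0.01. DDIT4 was at 0.44 and not called with DESeq2, and at 0.45 it missed an adjusted p of 0.01. Leaving out 1 library gave -0.31 to -0.19 for ATF4, 0.38 to 0.53 for DDIT4, -0.33 to -0.22 for CHAC1, 0.0831 to 0.19 for PSPH, -0.17 to 0.0492 for DDIT3, -0.0079 to 0.0474 for TRIB3 and -0.0326 to 0.12 for SESN2. DDIT3 changed sign without control siRNA replicate 3 (0.01) and without AHR siRNA replicate 3 (0.0492), TRIB3 without control siRNA replicate 2 (-0.0048) and without AHR siRNA replicate 3 (-0.0079), and SESN2 without control siRNA replicate 3 (-0.0189) and without AHR siRNA replicate 2 (-0.0326). The cause of these changes was not tested. Among named genes of the lists, 967 of 980 values were unchanged and none changed sign. Of all called genes, 64.7% were higher when only library totals were used and 50% with TMM. The labels do not say whether equal replicate numbers pair libraries. Deviations from the group means correlated at 0.19, -0.04 and 0.15 for equal numbers and at -0.26 to 0.16 for unequal numbers. With the replicate block 9598 genes were called against 8953 without it, and the calls of the 10 genes were the same. DDIT3 and DDIT4, at 66 to 106 counts per library, had the widest intervals.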
